A study of Mus musculus with 6 samples.

Results

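Chad, Upp1, Stab1, Ablim3, Serinc2, Dscaml1, Abi3bp, P2ry1 and Prox1 are 9 genes without a usual immune annotation that had very large rises in mouse CD4+CD25+ T cells bearing the surface receptor ILT3. They are 9 of the 38924 gene models counted in this study. They were chosen by name for the size of that rise, so their difference between the groups is given here as a description, without a p-value. Nearly all of their reads lay in the ILT3+ libraries, which held 68 to 2449 reads per gene over 3 libraries, while the ILT3- libraries held 0 to 21. In 8 of the 9 genes each ILT3+ library had at least 10 exon reads that the deposited tables count as unique, and the groups did not overlap on these reads. Of 13694 genes tested, 1418 (10.4%) met the same criterion with ILT3+ higher. Since the 9 genes were chosen for this contrast, nothing is read from that difference in share. Unique exon reads were under 50% of all ILT3+ reads in Chad, Ablim3, Abi3bp, Dscaml1 and Prox1. Most reads of Chad were not unique, most ILT3+ reads of Dscaml1, Abi3bp and Ablim3 lay in introns, and Prox1 had the fewest reads.

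Total RNA was sequenced from ILT3+ CD4+CD25+ T cells (3 libraries) and ILT3- CD4+CD25+ T cells (3 libraries), a fraction of CD4+ T cells rich in regulatory T cells. Both groups were taken from male and female wild-type mice, untreated, 10 to 16 weeks old. Cells of spleen and mesenteric lymph nodes were enriched for CD25 and CD4 on magnetic columns and sorted by ILT3, and 1 ng of RNA per library was amplified as full-length cDNA with SmartSeq V2 before Nextera XT library preparation. Nothing in the labels ties a sample to an animal, and the p-values below therefore reflect the variation among these samples only, part or all of which may be technical. In bulk samples a change in the share of cells that express a gene and a change in RNA per cell cannot be told apart, which applies to every value below.

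Most of the 9 genes are known best from tissues other than lymphocytes. Chad encodes chondroadherin, a leucine-rich repeat protein of cartilage matrix that binds collagen and integrins, and Abi3bp encodes a matrix protein named for binding Abi3. Stab1 encodes the scavenger receptor stabilin-1 of sinusoidal and lymphatic endothelium and some macrophages, P2ry1 a G protein-coupled receptor for ADP that platelets use, and Dscaml1 an immunoglobulin-superfamily adhesion molecule of neurons. Serinc2 encodes a multi-pass membrane protein of the serine incorporator family, Ablim3 an actin-binding LIM protein, Upp1 the uridine phosphorylase that splits uridine into uracil and ribose phosphate, and Prox1 a homeodomain transcription factor that sets lymphatic endothelial identity.

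Depth was 9334370 to 13648274 reads per library. CPM are read counts scaled to library size. On these totals 3 reads, the limit that a count of 0 allows, equal 0.220 to 0.321 CPM. The CPM of genes below use TMM-scaled library sizes, on which 3 reads in ILT3- sample 1 equal 0.3595 CPM. The labelled cell type was checked by 15 T cell identity genes, among them Cd3e, Cd4, Foxp3 and Il2ra, whose summed level was 8059 to 9827 CPM in ILT3+ libraries and 9203 to 11730 CPM in ILT3- libraries; edgeR called 0 of the 15 (3 at an unadjusted p under 0.05, 2 lower by DESeq2, 3 lower with the sample number as a block). With edgeR's quasi-likelihood test on total gene reads, 13694 gene models were tested, of which 269 (1.96%) were higher and 47 (0.343%) lower in ILT3+ cells at a Benjamini-Hochberg adjusted p under 0.05. All 9 genes were among the tested and among the 269, which their choice fixes. With the sample number as a block the counts were 573 (4.18%) higher and 359 (2.62%) lower. The 3 T cell identity genes that were lower with this block were Trbc1, Trbc2 and Cd5.

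The start regions of the 3 genes named first are shown because the results turn on where their reads lie, and because 6 of the 9 genes had a promoter in the RefSeq table (build GRCm38.p6). Each is 300 bases, from 250 before to 50 after the annotated start, and reads 5′ to 3′ on the strand of the gene. Capitals mark matches, on either strand, to 5 motifs: AP-1 (TGANTCA), Blimp-1 (GNGAAAG), RUNX (TGTGGT), the TATA box (TATAAA) and the GC box (GGGCGG).
Chad, chr11:94564797-94565096, plus strand: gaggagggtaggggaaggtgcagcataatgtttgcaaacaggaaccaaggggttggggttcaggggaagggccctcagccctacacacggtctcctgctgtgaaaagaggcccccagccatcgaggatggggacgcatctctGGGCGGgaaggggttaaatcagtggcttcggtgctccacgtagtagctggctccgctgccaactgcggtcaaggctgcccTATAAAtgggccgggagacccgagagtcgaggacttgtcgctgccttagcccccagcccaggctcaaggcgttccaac
Upp1, chr11:9117853-9118152, plus strand: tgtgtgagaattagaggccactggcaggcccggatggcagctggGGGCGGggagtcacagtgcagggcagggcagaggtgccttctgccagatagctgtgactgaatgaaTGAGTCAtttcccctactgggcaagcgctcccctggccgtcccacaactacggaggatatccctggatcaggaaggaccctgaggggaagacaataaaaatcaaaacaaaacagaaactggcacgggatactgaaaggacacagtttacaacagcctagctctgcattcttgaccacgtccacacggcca
Stab1, chr14:31168592-31168891, minus strand: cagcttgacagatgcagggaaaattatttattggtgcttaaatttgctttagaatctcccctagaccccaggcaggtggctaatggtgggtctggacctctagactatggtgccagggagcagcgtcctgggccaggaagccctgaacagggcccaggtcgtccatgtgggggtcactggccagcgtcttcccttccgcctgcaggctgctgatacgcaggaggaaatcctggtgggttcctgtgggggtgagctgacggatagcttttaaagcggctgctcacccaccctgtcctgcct
The Chad window held TATAAA at position -28 and GGGCGG at -108 relative to the start. The Upp1 window held TGANTCA at -140, the only AP-1 match in the 6 windows searched, and GGGCGG at -206, and the Stab1 window held none of the 5 motifs. For each gene only 1 window was searched, that of the promoter nearest its deposited start. RefSeq lists 3 promoters each for Upp1 and Serinc2 and 2 for Prox1, and the Serinc2 promoter searched lies 3619 bases from the deposited start. Of 32851 promoters of this length in the table, 7.81% held the AP-1 letters, 22.6% the Blimp-1 letters, 16.8% the RUNX letters, 13.6% TATAAA and 35.7% GGGCGG. These matches describe letters and not bound sites.

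Chad (chromosome 11, 94565047 to 94569127, plus strand, build GRCm38 per the submitters' processing notes) had 70, 510 and 558 total reads in the 3 ILT3+ libraries, against 1, 1 and 0 in the 3 ILT3- libraries. The groups did not overlap, and ILT3+ sample 1 was far below the other two. Chad averaged 30.6 ± 20.9 CPM in ILT3+ libraries, against 0.0661 ± 0.0609 CPM in ILT3- libraries (SD, n = 3 each), and its fitted log2 fold change was 8.80 (SE 1.10). The ratio of summed reads, scaled by the summed library sizes of each group, was 556, with an exact 95% counting interval of 154 to 4596.

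Chad lies where 2 gene models overlap. In the GENCODE M21 annotation its 4 exons (1680 bases in all) lie within an intron of an Acsf2 transcript, an intron that spans 94562919 to 94569309, on the opposite strand, and none of these bases falls in an Acsf2 exon. Acsf2 encodes an acyl-CoA synthetase family member. Only 15.2% of the ILT3+ reads of Chad were unique: 18, 76 and 79 unique exon reads in ILT3+ libraries, against 1, 0 and 0 in ILT3- libraries. The ratio on these reads was 169 (interval 29.9 to 6715), so the groups stayed apart on unique reads as well. In all 6 libraries the unique exon reads of Chad equalled its unique reads across exon junctions.

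This equality held for every tested gene model that lies wholly inside another one and had at least 100 exon reads, 257 of 257. For models without an overlap it held in 31 of 6192 (0.501%), and for partly overlapping ones in 115 of 4477 (2.57%). These nested genes were thus credited with unique exon reads only where reads crossed a splice junction, and their unique share was 24.3% at the median. The sequences across the first and the next of the 3 junctions of Chad are shown as examples of where such reads lie, with the downstream exon in capitals and 15 bases on each side.
Chad exons 1 and 2: accaacctggagaagTTCTCAGATGCTGCC
Chad exons 2 and 3: ccgtggccttcggcgGTGGTTGGAAGCCAA
The first joins base 94565868 to 94567798 across an intron of 1929 bases, and the next joins 94567961 to 94568209 across 247 bases.

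Acsf2 differed between the groups mainly in intron reads that were not unique. Its total level was 29.3, 51.2 and 36.4 CPM in ILT3+ libraries, against 13.54, 6.74 and 10.4 CPM in ILT3- libraries. It was called higher on total gene reads, with a log2 fold change of 1.93 (SE 0.36, edgeR adjusted p = 0.0393). On unique exon reads its log2 fold change was 0.90 and the call was lost (edgeR adjusted p = 0.499), with adjusted p from 3.23e-05 to 0.545 over the 18 alternatives; leaving out sample 2 or 3 of either group ended the call as well. Intron reads of Acsf2 that were not unique numbered 138, 412 and 301 in ILT3+ libraries, against 11, 1 and 15 in ILT3- libraries. Its unique intron reads numbered 89 in ILT3+ libraries, against 82 in ILT3- libraries, a ratio of 1.06 (interval 0.777 to 1.45), so its intron difference lay in reads that were not unique. Exon reads of Chad that were not unique numbered 936 in ILT3+ libraries, against 1 in ILT3- libraries. The introns of Chad, which lie within the same Acsf2 intron, held 29 reads in ILT3+ libraries, against 1109 reads in its exons. The sources used here define neither "unique" nor any use of strand. For a single read that was not unique, the gene of origin therefore cannot be told, and the part of each gene in these reads was not tested.

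**Figure D1:**
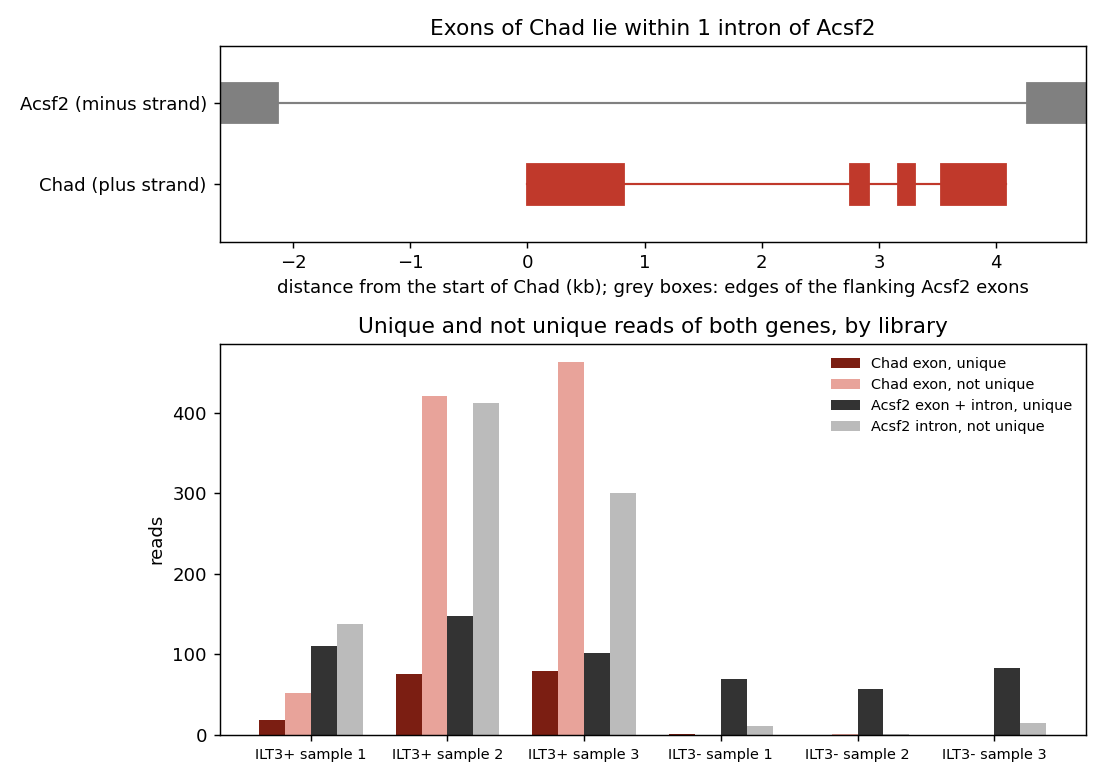
Top, the exons of Chad drawn to scale inside 1 intron of Acsf2, by distance from the start of Chad in kb; bottom, reads per library of both genes, split into unique and not unique. In the ILT3+ libraries the pale bars of both genes are high together, with 936 such exon reads for Chad and 851 such intron reads for Acsf2, while the ILT3- libraries hold 1 and 27.

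Abi3bp (chromosome 16, 56477846 to 56690128, plus strand) had 316, 162 and 279 total reads in ILT3+ libraries, against 2, 9 and 5 in ILT3- libraries. Every ILT3+ library was above every ILT3- library, and the ILT3+ level varied 2.28-fold from lowest to highest. Introns held 63.8% of its ILT3+ reads. Its unique exon reads were 167, 43 and 64 in ILT3+ libraries and 1, 0 and 0 in ILT3- libraries, a ratio of 268 (interval 47.7 to 10610). The ratio on total reads was 46.2 (28.3 to 81.3), with 15 of its 16 ILT3- reads in introns. The gene thus had spliced reads in ILT3+ libraries alone, 80 across junctions against 0. No other gene model overlaps it.

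Stab1 (chromosome 14, 31139013 to 31168641, minus strand) had 197, 337 and 245 total reads in ILT3+ libraries, against 0, 6 and 2 in ILT3- libraries. Its ILT3+ libraries were close together, at 21.7 ± 4.69 CPM, against 0.205 ± 0.241 CPM in ILT3- libraries (SD, n = 3 each). Unique exon reads were 173, 300 and 210 in ILT3+ libraries, against 0, 3 and 1 in ILT3- libraries, with a ratio of 167 (interval 64.9 to 614). Junction reads had the same pattern, 254 in ILT3+ against 2 in ILT3- libraries. Its last 109 bases overlap Nt5dc2 on the other strand, a gene with 0, 0 and 0 reads in ILT3+ libraries, against 0, 7 and 0 in ILT3- libraries. Stabilin-1 is a marker of macrophages and sinus endothelium, so their markers are set beside it: macrophage genes summed to 1848, 54.6 and 66.1 CPM in the ILT3+ libraries, against 23.6 to 62.6 CPM in the ILT3- libraries. Stab1 had 18.4 CPM in the first of these ILT3+ libraries, against 27.0 and 19.5 CPM in the others. The part of macrophages or endothelium in the reads of Stab1 was not tested. The related receptor gene Stab2 had 37.5, 2.09 and 1.83 CPM in ILT3+ libraries and 0.959, 0.314 and 0.217 CPM in ILT3- libraries (log2 fold change not called, edgeR adjusted p = 0.156, and 0.0292 with the block).

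P2ry1 (chromosome 3, 61002795 to 61008979, plus strand) had 62, 41 and 48 total reads in ILT3+ libraries, with none in any ILT3- library. Exons held 48, 37 and 32 of these reads, all unique. The ADP receptor gene was thus at least 49.2-fold higher on total reads and at least 38.1-fold higher on unique exon reads, against a floor of 3 reads over the ILT3- group. It has 2 exons in the table, and 1 of its 117 exon reads crossed a junction. Platelet genes, set beside it because platelets carry this receptor, summed to 52.1 to 80.9 CPM in ILT3+ libraries, against 39.2 to 42.2 CPM in ILT3- libraries, mostly from Itgb3, while Pf4 and Ppbp had 0 reads in all libraries.

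Dscaml1 (chromosome 9, 45430293 to 45753164, plus strand) had 569, 138 and 169 total reads in ILT3+ libraries, against 4, 6 and 9 in ILT3- libraries. The groups did not overlap, but ILT3+ sample 1 held 68.5% of its ILT3+ CPM, and its coefficient of variation of 91.4% was the highest of the 9 genes. Introns held 81.5% of its ILT3+ reads, also the highest, and all 19 of its ILT3- reads. Unique exon reads were 106, 19 and 34 in ILT3+ libraries, with none in any ILT3- library, at least 51.8-fold higher. Without ILT3+ sample 1 its fitted log2 fold change was 4.49, against 5.56 with it. The 2 models that it overlaps, 4833428L15Rik and Gm22069, had 0 reads in every library.

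Serinc2 (chromosome 4, 130253495 to 130279205, minus strand) had 361, 423 and 339 total reads in ILT3+ libraries, against 10, 1 and 10 in ILT3- libraries. It was the most even of the 9 genes over ILT3+ libraries, at 31.6 ± 3.97 CPM, against 0.667 ± 0.562 CPM in ILT3- libraries (SD, n = 3 each). Exons held nearly all of its reads, with 347, 355 and 328 unique exon reads in ILT3+ libraries, against 9, 1 and 5 in ILT3- libraries. Its ratio was 52.3 (34.0 to 84.8) on total reads and 67.1 (40.5 to 120.3) on unique exon reads, with intervals that overlap. No other model overlaps it.

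Ablim3 (chromosome 18, 61799395 to 61911852, minus strand) had 352, 210 and 273 total reads in ILT3+ libraries, against 3, 4 and 10 in ILT3- libraries. Introns held 53.9% of its ILT3+ reads. Its unique exon reads were 185, 83 and 117 in ILT3+ libraries, against 0, 0 and 9 in ILT3- libraries, so 1 ILT3- library held all of that group's exon reads. The ratio was 48.0 (29.8 to 82.8) on total reads and 41.8 (21.8 to 92.1) on unique exon reads. Its ILT3+ reads were thus split between exons and introns, while introns held 8.28% of those of Serinc2. No other model overlaps Ablim3.

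Upp1 (chromosome 11, 9118103 to 9136170, plus strand) had 438, 715 and 1296 total reads in ILT3+ libraries, against 0, 19 and 0 in ILT3- libraries. It was the most abundant of the 9 genes, at 67.2 ± 32.2 CPM in ILT3+ libraries, against 0.496 ± 0.860 CPM in ILT3- libraries (SD, n = 3 each). All 19 ILT3- reads were intronic and lay in ILT3- sample 2. Its unique exon reads were 397, 640 and 1099 in ILT3+ libraries, with none in any ILT3- library, at least 696-fold higher, where total reads gave a ratio of 126 (80.5 to 209.5). Junction reads numbered 733 in ILT3+ libraries and 0 in ILT3- libraries, so the difference of this gene was larger on spliced reads than on total reads.

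Prox1 (chromosome 1, 190118038 to 190170680, minus strand) had 13, 23 and 32 total reads in ILT3+ libraries, with none in any ILT3- library. It was the least abundant of the 9 genes, at 1.87 ± 0.665 CPM in ILT3+ libraries. Its unique exon reads were 7, 11 and 15 in ILT3+ libraries, with none in ILT3- libraries, at least 10.8-fold higher, and 1 exon read crossed a junction. With 7 unique exon reads in ILT3+ sample 1, Prox1 was the only one of the 9 genes under the minimum of 10 per ILT3+ library. Its first 385 bases overlap Gm17566, which had 3, 2 and 4 reads in ILT3+ libraries, against 3, 1 and 6 reads in ILT3- libraries. Markers of lymphatic and sinus endothelium, where Prox1 is best known, summed to 15.9 to 70.1 CPM in ILT3+ libraries, against 19.4 to 32.6 CPM in ILT3- libraries, with overlapping groups. These sums came mostly from Pard6g (12.3 to 30.4 CPM in ILT3+ and 15.7 to 30.3 CPM in ILT3- libraries). In ILT3+ sample 1 Stab2 added 37.5 CPM. Of these 12 markers Ccl21a, Sox18, Tbx1 and Foxc2 had 0 reads in all libraries, Lyve1 had 2 reads in ILT3+ libraries, against 0 in ILT3- libraries, and Flt4 0 and 5.

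**Figure D2:**
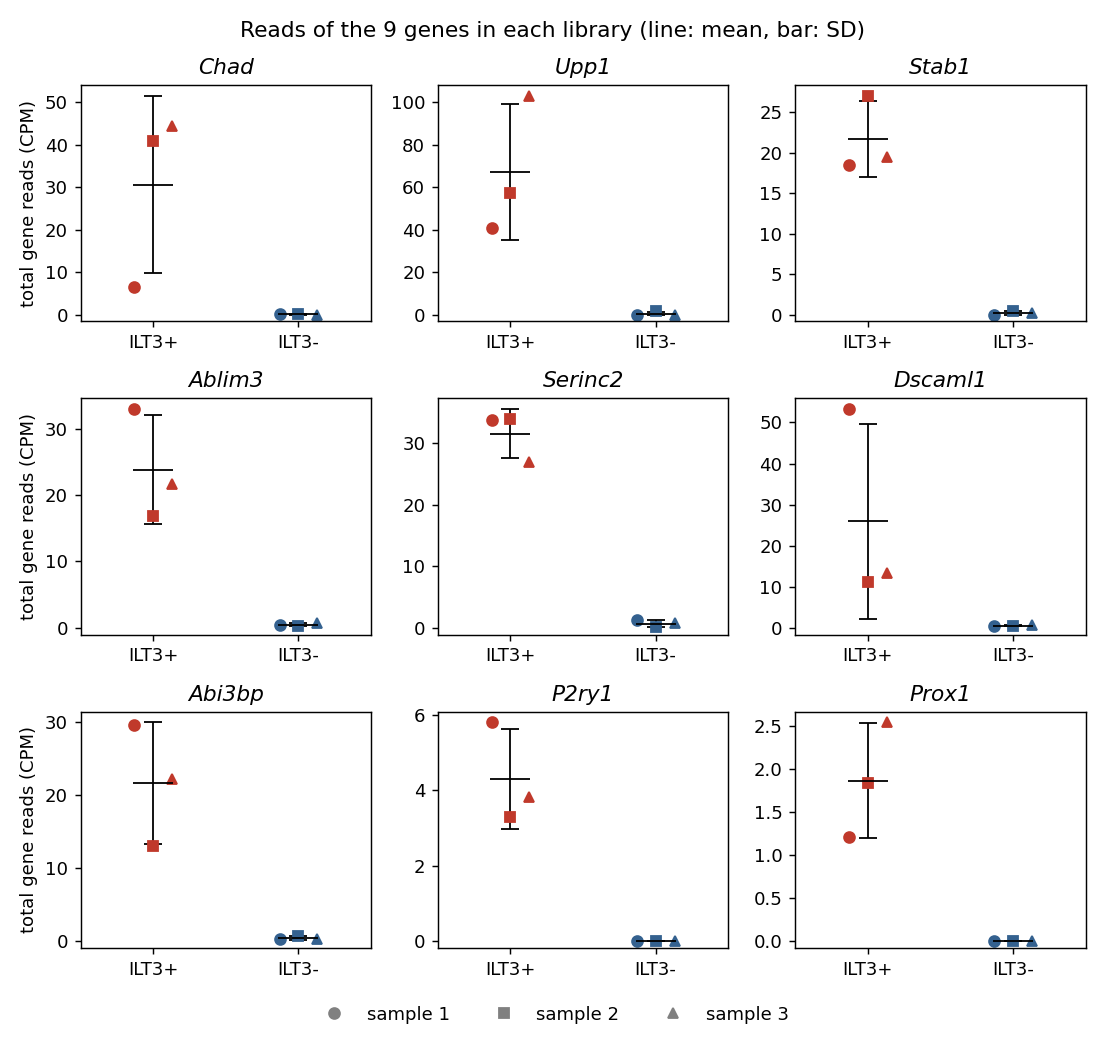
Total gene reads (CPM, TMM-scaled) of the 9 genes in each library; points are libraries, with the mean as a line and the SD as a bar, n = 3 per group. In every panel the 3 ILT3+ points lie above the 3 ILT3- points, and sample 1 is the low ILT3+ point of Chad (6.55 CPM) and the high one of Dscaml1 (53.3 CPM).

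Set side by side, 8 of the 9 genes met both parts of the criterion for unique exon reads (at least 10 in each ILT3+ library, and a lowest ILT3+ CPM above the highest ILT3- CPM). Of the 13694 tested genes 1418 (10.4%) met it, and on total reads 1561 (11.4%) had groups that did not overlap with ILT3+ higher. Since the 9 genes were chosen for this contrast, nothing is read from that difference in share. Their fitted log2 fold changes ran down to 5.56 for Abi3bp, a size that 57 tested genes (0.416%) reached. On unique exon reads 11005 genes could be tested, of which 177 (1.61%) were called higher and 27 (0.245%) lower. The ILT3- libraries held no unique exon read of Upp1, Dscaml1, P2ry1 or Prox1.

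**Figure D3:**
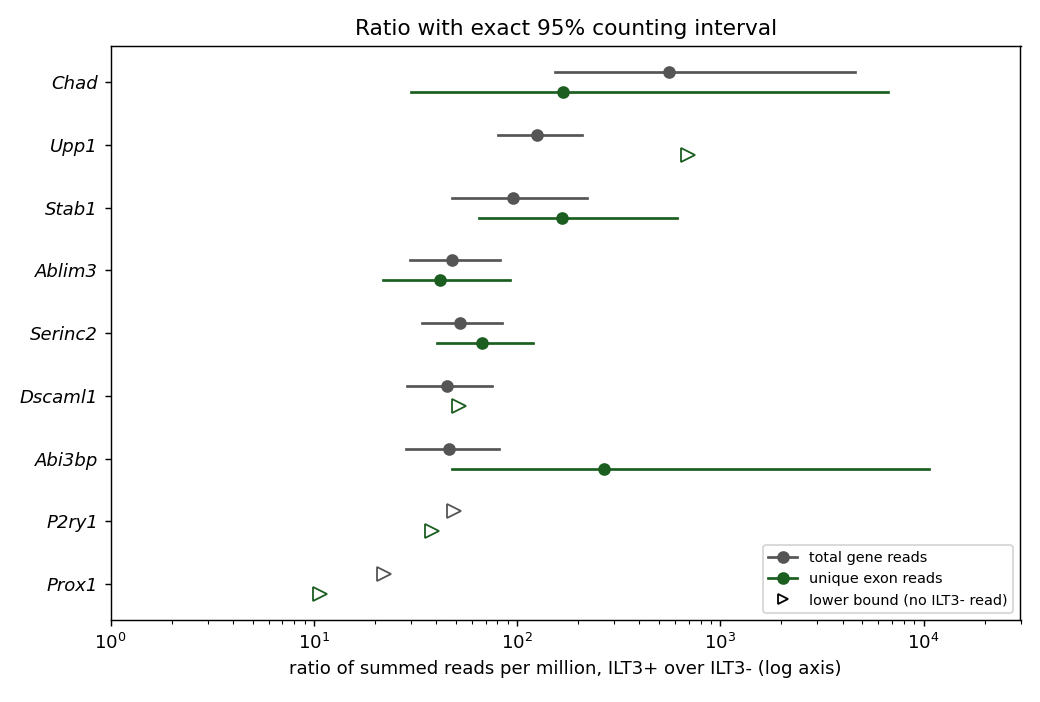
Ratio of summed reads scaled by summed library sizes, ILT3+ over ILT3-, for each gene on a log axis. Total gene reads are grey and unique exon reads green, with exact 95% counting intervals. Open triangles are lower bounds where no ILT3- read was counted. Upp1 and Abi3bp lie further right on unique exon reads (at least 696 and 268) than on total reads (126 and 46.2), while Chad lies further left (169 against 556). The intervals on unique exon reads and on total reads overlap for both Abi3bp and Chad.

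The genes differed most in where their reads lay. The intron share of ILT3+ reads was 2.55% for Chad, 8.28% for Serinc2, 11.6% for Stab1, 12.8% for Upp1, 22.5% for P2ry1 and 48.5% for Prox1, and was over 50% in Ablim3, Abi3bp and Dscaml1. Their median of 22.5% was close to that of all tested genes, 24.9% (quartiles 9.01% to 58.5%). Junction reads were 36.9% of the exon reads of Stab1, 34.3% for Upp1 and 29.2% for Abi3bp, against 15.2% at the median of tested genes with exon reads (quartiles 6.06% to 25%). They were 0.855% for P2ry1 and 2.86% for Prox1. Apart from Chad, the unique share of ILT3+ reads was 97.1% to 100%.

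**Figure D4:**
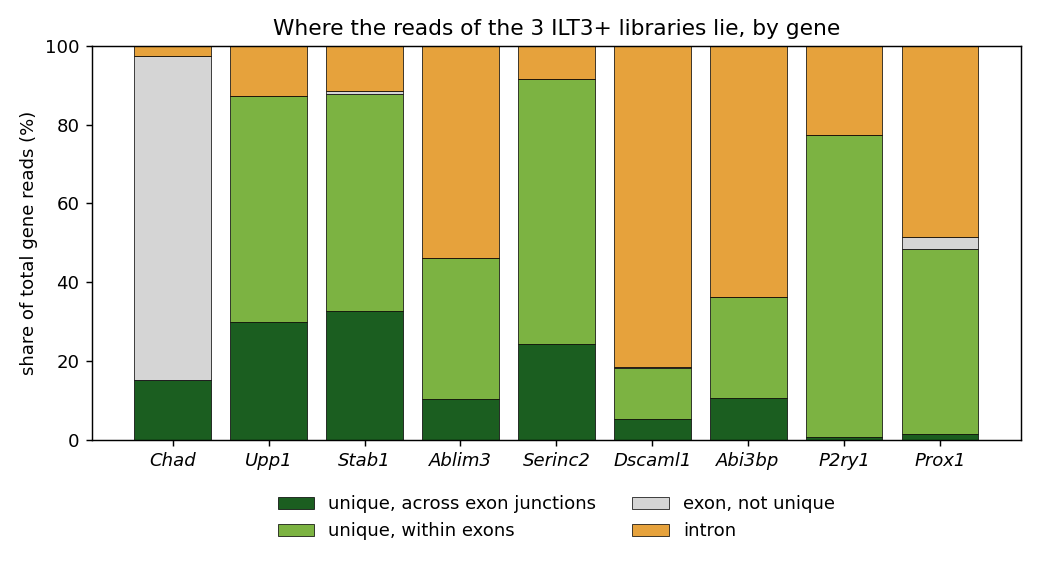
Share of the total reads of the 3 ILT3+ libraries, in percent, that were unique and crossed exon junctions, unique within exons, in exons but not unique, or in introns, for each gene. Chad stands out by exon reads that were not unique, and Dscaml1 by an intron share of 81.5%.

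Levels per length were taken as CPM of total exon reads per kb of exon. In ILT3+ libraries Upp1 was highest (median 26.2, range 18.95 to 44.6). Chad (23.7, 3.90 to 25.7) and Serinc2 (12.3, 11.3 to 14) came next. Only 15.6% of the ILT3+ exon reads of Chad were unique, so its place rests mostly on reads that cannot be assigned between Chad and Acsf2. Ablim3 (2.04, 1.46 to 3.80) and Stab1 (1.63, 1.59 to 2.36) followed. Abi3bp (1.08, 0.729 to 3.30), P2ry1 (0.764, 0.655 to 1.16), Dscaml1 (0.427, 0.241 to 1.61) and Prox1 (0.1253, 0.0787 to 0.143) were lower. Neighbours in this order of means overlapped over libraries, except that Serinc2 lay above Ablim3 and Dscaml1 above Prox1 in all 3 ILT3+ libraries.

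The 9 genes did not share 1 order of the ILT3+ libraries. Sample 1 was highest for Ablim3, Dscaml1, Abi3bp and P2ry1, sample 2 for Stab1 and Serinc2, and sample 3 for Chad, Upp1 and Prox1. ILT3+ sample 1 held 7.13% of the ILT3+ CPM of Chad and 68.5% of that of Dscaml1. The same library held 93.9% of the ILT3+ CPM of 19 macrophage markers, with Csf1r at 265 CPM there against 2.25 and 0.398 CPM in the other ILT3+ libraries, and 53.0% of that of 8 B cell markers. It held 36.4% of that of T cell identity genes. The part of these other cells in the values of the 9 genes was not tested. Without ILT3+ sample 1, the log2 fold changes were 9.28 for Chad, 7.21 for Upp1, 6.65 for Stab1, 5.31 for Ablim3, 5.56 for Serinc2 and 5.27 for Abi3bp.

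**Figure D5:**
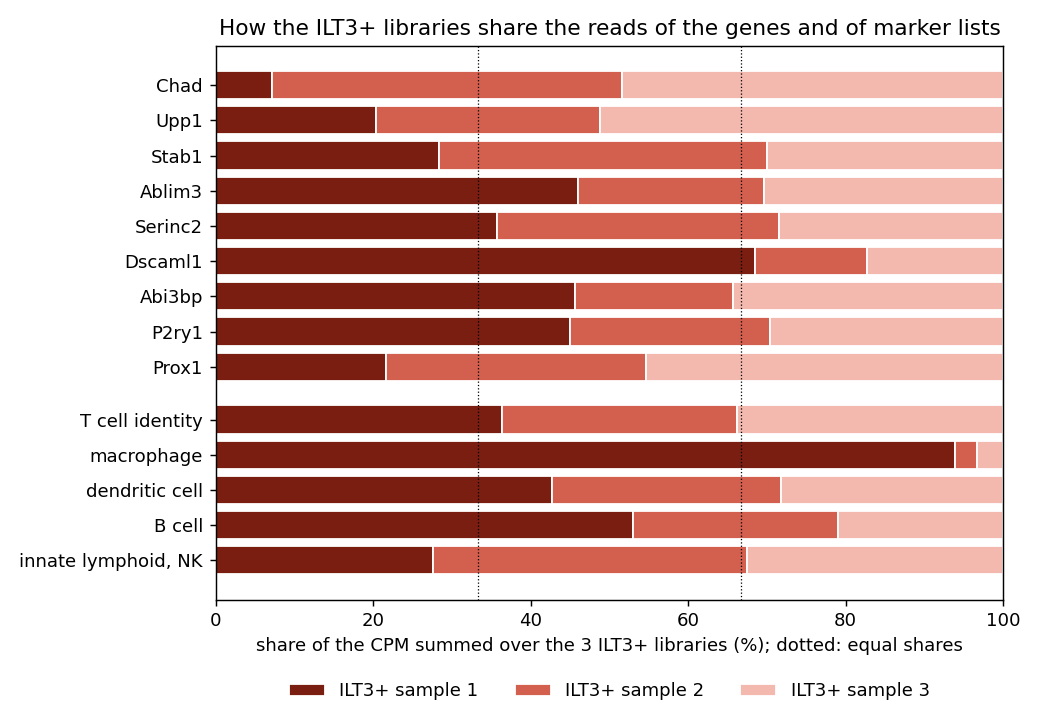
Share of the CPM summed over the 3 ILT3+ libraries that each library holds, in percent, for the 9 genes and 5 marker lists; dotted lines mark equal shares. Sample 1 holds 93.9% of the macrophage markers, 68.5% of Dscaml1 and 7.13% of Chad.

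Markers of further cell types were read in the same libraries. Of 15 dendritic cell markers 10 were tested and 6 were higher in ILT3+ cells (8 with the block), where 1.96% of all tested genes were (4.18% with the block). The summed level of the list was 1529 to 2320 CPM in ILT3+ libraries, against 197 to 219 CPM in ILT3- libraries, while Cd209a had 0 reads in all libraries. Most of this sum was Cd74 (1146 to 1720 CPM in ILT3+ and 130.8 to 149.5 CPM in ILT3- libraries). Of 7 tested innate lymphoid and NK genes Kit, Il1rl1 and Cxcr6 were higher (5 with the block; 1.96% and 4.18% of all tested genes), and the list summed to 1218 to 1759 CPM in ILT3+ libraries, against 471 to 584 CPM in ILT3- libraries. Of the Cxcr6 reads 8.47% were unique, and its call (log2 fold change 5.37, edgeR adjusted p = 0.0277) was lost on unique gene reads (3.65, 0.107) and on unique exon reads (3.65, 0.137), with adjusted p from 3.34e-11 to 0.150 over the 18 alternatives. Of 2 tested stromal markers Pdgfrb was higher, with 8.01 ± 1.46 CPM in ILT3+ libraries, against 0.130 ± 0.0949 CPM in ILT3- libraries (SD, n = 3 each, edgeR adjusted p = 0.00995), while Lum, Ccl19 and Postn had 0 reads. Cartilage markers, set beside Chad, summed to 2.90 to 5.62 CPM in ILT3+ libraries, against 1.68 to 2.32 CPM in ILT3- libraries, with Sox9 at 0 reads. Neuron markers, set beside Dscaml1, summed to 21.9 to 52.2 CPM in ILT3+ libraries, against 17.2 to 46.5 CPM in ILT3- libraries. By edgeR 0 of 12 tested macrophage markers passed (7 at an unadjusted p under 0.05, 0 by DESeq2, 5 with the block), and 0 of 6 neuron, 0 of 7 B cell, 0 of 3 lymphatic and 0 of 1 cartilage markers did (1, 1, 1 and 0 at an unadjusted p, and 1, 0, 0 and 0 by DESeq2). With the block Gad1 of the neuron list and Stab2 of the lymphatic list were higher, and Pecam1 of the blood endothelium list was lower (edgeR adjusted p = 0.0114, 0.0292 and 0.0105). Of 3 blood endothelium markers tested 0 passed (0 unadjusted, 0 by DESeq2). The list summed to 88.9 to 185 CPM in ILT3+ libraries, against 148 to 331 CPM in ILT3- libraries. Nearly all of this was Pecam1 (84.5 to 179 CPM in ILT3+ and 145 to 326 CPM in ILT3- libraries). Of 2 platelet markers 0 passed (1 unadjusted, 0 by DESeq2). Leaving out sample 2 or 3 of either group left 1 to 3 dendritic cell calls, 1 innate lymphoid call and no stromal call, and without ILT3+ sample 1 there were 5, 4 and 1. The part of any of these cells in the 9 genes was not tested.

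Families and pathways of the 9 genes, taken without the genes themselves, changed in few members. Of all tested genes 1.96% were called higher (4.18% with the block), and each list below rests on 1 called gene or none, so nothing is read from these counts about a list. In pyrimidine nucleoside metabolism, the pathway of Upp1, 1 of 34 tested genes was higher and 0 lower (4 and 1 with the block), at a median log2 fold change of -0.10, where all tested genes had -0.02. The gene was Rrm2, a ribonucleotide reductase subunit, with 66.7 ± 14.9 CPM in ILT3+ libraries, against 18.5 ± 2.61 CPM in ILT3- libraries (SD, n = 3 each, log2 fold change 1.85, edgeR adjusted p = 0.0127). The other uridine phosphorylase gene Upp2 was at 2.02 ± 0.879 CPM in ILT3+ libraries, against 1.25 ± 0.475 CPM in ILT3- libraries and was not called (edgeR adjusted p = 0.737). In the immunoglobulin adhesion family of Dscaml1, 1 of 12 was higher (2 with the block), at a median of -0.07. It was Cntn1, a contactin of neuronal contacts, with 197 ± 57.1 CPM in ILT3+ libraries, against 11.0 ± 5.43 CPM in ILT3- libraries (SD, n = 3 each, log2 fold change 4.17, edgeR adjusted p = 0.00760). Its relative Dscam had 164 ± 40.4 CPM in ILT3+ libraries, against 20.3 ± 20.7 CPM in ILT3- libraries, with an edgeR adjusted p of 0.0713, and 0.00813 with the block.

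In the group of actin-binding LIM and Abi genes around Ablim3 and Abi3bp, 1 of 12 was higher (1 higher and 1 lower with the block), at a median of -0.17. It was Cyfip1, a subunit of the WAVE complex that drives actin branching, with 225 ± 16.5 CPM in ILT3+ libraries, against 86.5 ± 15.6 CPM in ILT3- libraries (SD, n = 3 each, log2 fold change 1.38, edgeR adjusted p = 0.0143). Abi3, after which Abi3bp is named, had a log2 fold change of 0.05 (edgeR adjusted p = 0.990). Leaving out 1 library ended the calls of Rrm2 and Cyfip1 in 4 of 6 cases (sample 2 or 3 of either group; edgeR adjusted p up to 0.0721 and 0.0781), and that of Cntn1 in 1 (ILT3- sample 3; 0.0519).

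In 4 lists edgeR called 0 genes. These were purinergic signalling around P2ry1 (of 16, 1 had an unadjusted p under 0.05 and 0 passed in DESeq2), scavenger receptors around Stab1 (of 18, 6 unadjusted and 3 in DESeq2, 1 higher and 2 lower), leucine-rich matrix proteins around Chad (of 4, 1 unadjusted and 0 in DESeq2) and serine incorporators around Serinc2 (of 4, 2 unadjusted and 0 in DESeq2). With the block, Entpd1 and Stab2 were higher and P2ry10, Cd5 and Cd6 lower in the first pair of lists, and Podnl1 and Serinc3 were higher in the other pair. Podnl1 followed ILT3+ sample 1, with 179, 10.8 and 14.4 CPM in ILT3+ libraries, against 17.5, 2.90 and 2.90 CPM in ILT3- libraries. The family members Upp2, Stab2 and Serinc1 (log2 fold change 0.70, 4.85 and -0.08) were not called by edgeR on total gene reads without the block.

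Genes among the 3 most like each of the 9 were taken by Pearson's r of log2(CPM + 1) over the 6 libraries, among 8550 genes of at least 10 CPM on average. For Chad they were Tdrkh, Runx3 and Npnt (r = 0.995, 0.993 and 0.993), for Upp1 Fam124b and Agap1 (0.996 and 0.995), and for Stab1 Arap3, Pnp and Stom (0.996, 0.995 and 0.995). Ablim3 was close to Hmgn3 and Tyms (0.996 each), Serinc2 to Serpinb1a, Penk and F2r (0.999, 0.999 and 0.998), and Dscaml1 to Ube2e3, Tpi1 and Plcb4 (0.999, 0.995 and 0.993). P2ry1 was close to Ablim3 and Cd74 (0.997 and 0.996), and Prox1 to Runx3 and Frmd5 (0.998 and 0.993). For Abi3bp they were Lingo2_1, Chst11 and Ablim3 (0.996, 0.993 and 0.993). These values describe 6 libraries that share the split into groups, and an r of at least 0.9 was reached by 227 to 328 of the 8550 genes for each of the 9.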

How the data were processed

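Per the file headers, the authors deposited for each of the 6 libraries a table of read counts per gene model: total and unique reads of the gene, its exons, exon junctions and introns, with gene model properties (region, length, numbers of exons and transcripts) beside them. Build GRCm38 is named in the submitters' processing notes. The sources used here give no aligner, counting tool, annotation or use of strand. RPKM and ratio columns of the tables were left out. Gene models were matched to GENCODE M21 for exon positions, and promoter sequences are from RefSeq (GRCm38.p6) and junction sequences from the GENCODE M21 transcripts.

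The 9 genes and all lists were chosen with earlier results of these data known. Total gene reads were tested with edgeR 4.0.16 (TMM, default filter with minimum count 10 and total 15, robust quasi-likelihood fit on group, Benjamini-Hochberg) over all 13694 genes that passed, and unique exon reads likewise. CPM uses TMM-scaled library sizes. Standard errors were computed as log2 fold change over the square root of F. DESeq2 1.42.0 was an alternative. The fit was tested on simulated data. Ratios of summed reads have exact 95% intervals. Both intervals and floors cover counting error alone, as no molecular identifiers are described. A floor of 3 reads over the group was used where a group had 0. Of 299 list symbols 294 were in the tables by name, 1 was matched by a RefSeq synonym and 4 were not matched.

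Named genes were the 9 genes, models that overlap them, the 3 most similar genes of each, list genes that passed the test or up to 4 by smallest p, and up to 3 per marker list by summed reads. Pdgfrb, Kit, Il1rl1, Cxcr6 and markers at 0 were chosen once their values were known. Other list genes were also named outside these rules, among them Cd3e, Cd4, Il2ra, Csf1r, Lyve1, Flt4, Upp2, Dscam and Abi3. Both groups number their samples 1 to 3. Same-numbered libraries deviated together from their group means (r = 0.40, 0.26 and 0.27), so by a bound of 0.1 in every pair the numbers were taken to pair the libraries. That pairing comes from the data and not from the labels, and numbers 2 and 3 crossed between the groups also passed the bound (0.12 and 0.16). Some genes and 1 list that these rules select are not reported here.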

Additional observations from a re-analysis of the deposited data

How the results depend on the processing

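Against 269 genes higher and 47 lower on total gene reads, unique exon reads gave 177 and 27, total exon reads 207 and 29, and DESeq2 693 and 255. With the replicate block the counts were 573 and 359, with the block on unique exon reads 343 and 219, and without both samples numbered 1 they were 625 and 161. Leaving out 1 library gave 27 to 274 higher and 1 to 48 lower, with ILT3- sample 3 giving the lowest higher count. On unique exon reads, the 177 higher genes became 551 by DESeq2, 512 without both samples numbered 1, 343 with the block and 17 to 194 with 1 library left out. Other scalings and filters stayed within 1.5 times of these counts. The cause of these shifts was not tested. The log2 fold changes of the 9 genes stayed positive under every alternative that gave a value (18 for most genes, 17 for P2ry1 and 14 for Prox1), from 3.59 for Prox1 at the lowest to 12.61 for Upp1. Of the 9 genes 8 were called with the block, Prox1 being lost, where 4.18% of all tested genes were higher. By DESeq2 8 were called, where 693 of 13694 tested genes were higher. On unique exon reads 6 of the 8 that could be tested were called, where 1.61% of all tested genes were higher. The 9 genes were chosen for this rise, so nothing is read from these counts or from those with 1 library left out. Leaving out ILT3+ sample 1, 2 or 3 left 8, 3 and 3 of the 9 called, and ILT3- sample 1, 2 or 3 left 8, 5 and 1. Depth limits the ILT3- side: with 0 to 21 reads per gene, ratios have wide intervals, and for P2ry1 and Prox1 the lower bound alone is given.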
